A study of Homo sapiens with 9 samples.

Results

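The mitochondrial genome carries 37 genes, and every gene that both count tables place on chrM was taken: 13 mRNAs, 2 rRNAs and 22 tRNAs, out of 60609 genes in all. The rule uses their position only and no measured value. They were followed in the human mammary epithelial line MCF-10A, which does not form tumours. Parental cells (WT) were compared with 2 knock-in lines, each genotype in 3 libraries. The knock-in lines carry an activating change in PIK3CA, which encodes the catalytic subunit p110-alpha of PI 3-kinase: E545K in the helical domain and H1047R in the kinase domain. The parental cells were maintained in EGF (epidermal growth factor) at 20 ng/ml, both knock-in lines at 0 ng/ml, so the growth factor history and the knock-in cannot be told apart in a comparison with WT. The groups shared the other medium components, namely horse serum (5%), cholera toxin (100 ng/ml), hydrocortisone (0.5 µg/ml) and insulin (10 µg/ml). Every culture spent its last 24 h at 0.2 ng/ml EGF and 1% charcoal-stripped serum and was harvested at 80% confluence. The labels do not say how many clones stand behind each knock-in line, nor whether the 3 libraries of a genotype came from separate cultures, so the p-values cover no more than library-to-library spread, possibly technical. Gene counts cannot show a single-base change, so the genotype labels were not checked here. In the table shared by WT and E545K the column headers read mutant and parental. They were taken as E545K and WT because the labels assign only these genotypes to that table, and no header there names E545K.

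Mitochondrial DNA is a small circle transcribed from both strands into long precursors, in which tRNA genes separate most of the mRNA and rRNA genes. Enzymes cut the tRNAs out, and this frees the flanking mRNAs and rRNAs. The mRNAs are then stabilised, most of them are polyadenylated, and mitochondrial ribosomes translate them. The mRNAs encode core subunits of the respiratory chain: 7 for complex I (NADH dehydrogenase), 1 for complex III (cytochrome b), 3 for complex IV (cytochrome c oxidase) and 2 for complex V (ATP synthase). All other subunits, and the proteins that copy, transcribe and translate this genome, come from nuclear genes.

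The chrM sequence was 16569 bases long, with 28 of the 37 genes on the plus strand and 9 on the minus strand, where MT-ND6 and 8 tRNAs lie. Reads had been counted without regard to strand, once for every gene they overlapped, which sets what a count means here. Reads were up to 150 bases long and the tRNA genes 59 to 75 bases, so a tRNA's count also takes reads that run into it from a neighbouring gene or from an uncut precursor. Counts of minus-strand genes likewise include reads of the opposite strand. The shared reads differ from place to place, and the stretches with the closest neighbours are printed here from the hg38 reference.

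Between MT-CO1 and MT-CO2, the pair of mRNAs that moved in opposite directions in H1047R, lie MT-TS1 (minus strand) and MT-TD (plus strand), 3 bases apart. The stretch chrM:7426-7605 is given on the plus strand with both tRNA genes in capitals and the last 20 bases of MT-CO1 and the first 20 of MT-CO2 in lower case.
MT-CO1 end to MT-CO2 start: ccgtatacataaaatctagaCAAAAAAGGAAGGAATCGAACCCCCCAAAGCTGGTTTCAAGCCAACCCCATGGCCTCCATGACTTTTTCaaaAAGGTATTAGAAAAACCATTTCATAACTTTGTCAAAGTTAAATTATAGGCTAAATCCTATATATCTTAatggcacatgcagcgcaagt
MT-ATP8 and MT-ATP6 share 46 bases, 22.2% of MT-ATP8, and MT-ND4L and MT-ND4 share 7, so reads there entered both counts. The shared bases are in capitals in chrM:8507-8592 and chrM:10740-10786, both on the plus strand.
MT-ATP8 and MT-ATP6: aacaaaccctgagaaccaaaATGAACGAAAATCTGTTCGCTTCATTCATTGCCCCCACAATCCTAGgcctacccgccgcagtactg
MT-ND4L and MT-ND4: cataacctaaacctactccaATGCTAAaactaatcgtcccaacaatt
To show a plus-strand pair that fell in E545K (MT-TD and MT-TI) beside the minus-strand pair that rose most among the tRNAs in H1047R (MT-TA and MT-TS1), these 4 genes are given 5′ to 3′ on their own strands, as DNA, with the anticodon in capitals (positions 30 to 32 of MT-TI and 31 to 33 of the other three, counted from the 5′ end).
MT-TD, for aspartate, chrM:7518-7585, plus strand: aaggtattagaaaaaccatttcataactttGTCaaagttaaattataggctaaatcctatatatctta
MT-TI, for isoleucine, chrM:4263-4331, plus strand: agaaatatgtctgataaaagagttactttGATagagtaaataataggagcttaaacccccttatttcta
MT-TA, for alanine, chrM:5587-5655, minus strand: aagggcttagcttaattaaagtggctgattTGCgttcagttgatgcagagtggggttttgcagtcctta
MT-TS1, for serine, chrM:7446-7514, minus strand: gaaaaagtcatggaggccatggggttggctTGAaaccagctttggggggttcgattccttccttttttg
Of the mRNA genes, 9 start with ATG, 3 with ATA (MT-ND1, MT-ND3 and MT-ND5) and 1 with ATT (MT-ND2). 6 end inside a codon (MT-ND1, MT-ND2, MT-CO3, MT-ND3, MT-ND4 and MT-CYB), where the stop codon is known to be completed by the poly(A) tail.

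Library totals were 95091894 to 136132315 counts in WT and E545K and 377093507 to 605972919 in H1047R. The larger totals did not reach more genes: 34228 to 38442 genes had a count in H1047R, against 37004 to 41070 in WT and E545K. The H1047R libraries stand in a count table of their own, so the table and the genotype cannot be told apart. Their replicates also spread more: the common coefficient of biological variation was 0.214 within H1047R, against 0.0322 within WT and 0.0283 within E545K. For chrM genes the H1047R replicate 1 library stood apart, with 417 CPM over both rRNAs where replicates 2 and 3 had 260 and 193. Genes of the annotation class misc_RNA took 8.54 to 8.87% of the H1047R counts and 4.59 to 4.90% elsewhere. Scaling the libraries without these and the chrM genes moved the median log2 fold change of all genes by 0.0006 to 0.0044. All 7 epithelial markers (KRT5, KRT14, KRT17, TP63, CDH1, EPCAM and ITGB4) reached 1 CPM in every library, and their sum was 29720 to 30355 CPM in WT, 24419 to 24919 in E545K and 27256 to 30970 in H1047R. Of the markers of other cell types, 1 of 5 for fibroblasts (COL1A1), 1 of 4 for endothelium (KDR) and 0 of 3 for adipocytes reached 1 CPM in every library. The summed endothelial markers were 8.41 to 10.2 CPM in WT, 10.4 to 12.1 in E545K and 22.0 to 23.6 in H1047R, nearly all of it KDR, while PECAM1, CDH5 and VWF stayed under 1 CPM in every library. The fibroblast sum, mostly COL1A1, was 47.6 to 48.5, 58.9 to 61.9 and 58.5 to 71.7 CPM in the same order. The part of these differences in the results was not tested.

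Levels are given as CPM, the share of a library's counts on the usual CPM scale after TMM scaling of the library sizes, which centres the libraries on the bulk of their genes. Together the 13 mRNAs took 1.005, 1.003 and 0.958% of all counts in the WT libraries. They took 1.057, 1.037 and 1.064% in E545K and 1.324, 1.219 and 1.129% in H1047R. The means were 0.989 ± 0.0268%, 1.053 ± 0.0143% and 1.224 ± 0.0979% (SD, n = 3 each), and the 3 groups did not overlap. An exact two-sided permutation test gave p = 0.1 for each of the 3 pairs (adjusted 0.1), the smallest value that 3 against 3 allows. On the TMM-scaled library size the WT and E545K libraries overlapped and the sign turned, to -0.00171 percentage points for E545K minus WT (exact permutation p = 0.8), while H1047R stayed above both by 0.280 and 0.281. In bulk RNA, more mitochondrial RNA per cell and less of other RNA cannot be told apart.

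Per kilobase of gene, the order of the mRNAs in WT ran from MT-CO1 (2512 CPM per kb) over MT-CO2 (1919), MT-CO3 (1472), MT-CYB (812) and MT-ATP6 (746) down to MT-ND2 (164) and MT-ND6 (162), a pair whose WT libraries overlapped on this scale. The same 5 mRNAs led in each genotype. In E545K MT-CO1 stood at 2418 and MT-CO2 at 2091, and in H1047R MT-CO1 reached 3944 while MT-CO3 (1607) stood above MT-CO2 (1444). The rRNAs, left after rRNA depletion, came below every mRNA at 47.2 (MT-RNR2) and 19.3 (MT-RNR1) CPM per kb in WT.

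**Figure D1:**
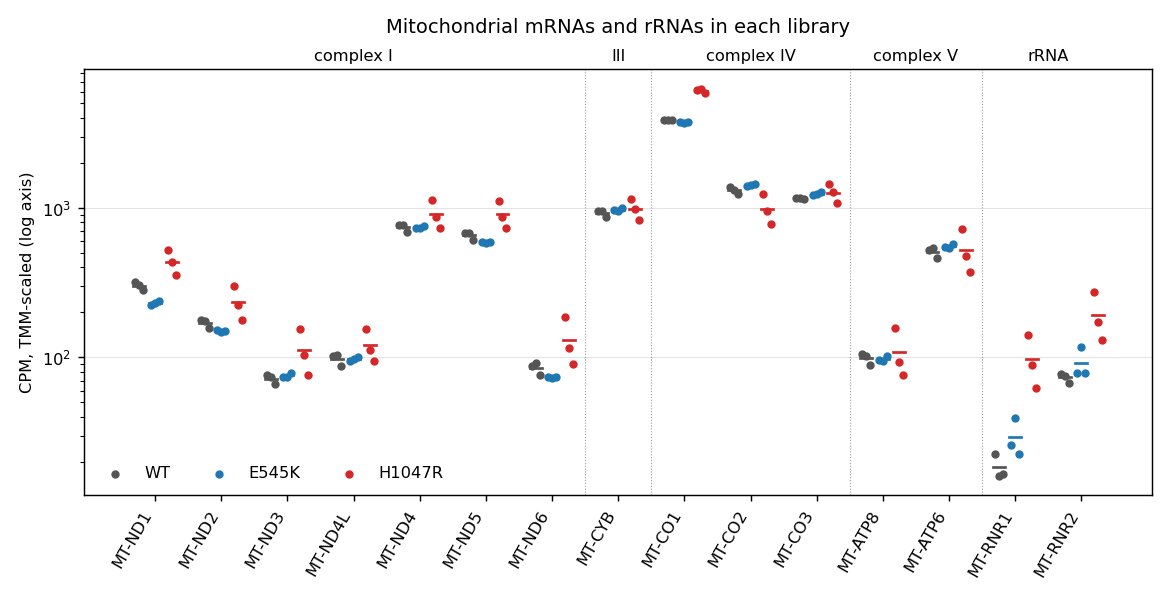
CPM after TMM scaling (log axis) of the 13 mitochondrial mRNAs, by respiratory complex, and of the 2 rRNAs. Each point is 1 library and each short line the mean of 3. MT-CO1 stands apart in H1047R at 5844 to 6275 CPM, MT-CO2 lies lowest there, and the H1047R points spread most for MT-ATP8, MT-ND6, MT-ND3 and the rRNAs.

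Each gene was tested with edgeR's quasi-likelihood test on the counts of all 9 libraries, and p-values were adjusted by the Benjamini-Hochberg method over the 26412 genes that passed the low-count filter, a gene being called at an adjusted p under 0.05. All 37 mitochondrial genes passed the filter. Of all genes tested, 36.6% were called between E545K and WT, 55.5% between H1047R and WT and 53.2% between H1047R and E545K, so a call alone says little. By direction, 17.7% were called higher and 18.9% lower in E545K against WT. Those shares were 27.4% and 28.1% in H1047R against WT, and 25.9% and 27.3% in H1047R against E545K. The medians over all genes were 0.00, 0.02 and 0.02 (log2). Groups of libraries that do not overlap were more common than calls. In E545K against WT 26.7% of all genes lay wholly higher and 27.4% wholly lower. The shares were 29.8% and 30.3% in H1047R against WT, and 28.7% and 30.1% in H1047R against E545K.

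In E545K the mRNAs stayed close to WT and the tRNA genes lay lower. Of the 37 genes, 0 were called higher and 18 lower against WT: 17 of the 22 tRNAs and 1 of the 13 mRNAs, MT-ND1. DESeq2 also called 0 higher, and at an unadjusted p under 0.05 edgeR had 1 higher, MT-RNR1. The median log2 fold change was -0.51 over the tRNAs and -0.00 over the mRNAs. Fitted on library totals without TMM scaling, the split became 2 higher and 16 lower. With the 6 WT and E545K libraries alone, whose replicates are tighter, it became 6 higher and 24 lower. Of the 13 mRNAs, 4 were then called higher and 5 lower. Library totals moved the median of all genes by 0.09 in E545K against WT, and by -0.04 and -0.13 in H1047R against WT and against E545K.

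In H1047R the picture was another. Against WT, 23 of the 37 genes were called higher and 1 lower: 7 mRNAs, both rRNAs and 14 tRNAs rose, and MT-CO2 fell. Against E545K, 30 were called higher and 1, again MT-CO2, lower. The comparisons of H1047R use the same H1047R libraries, and both comparisons with WT the same WT libraries, so none of them supports another.

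**Figure D2:**
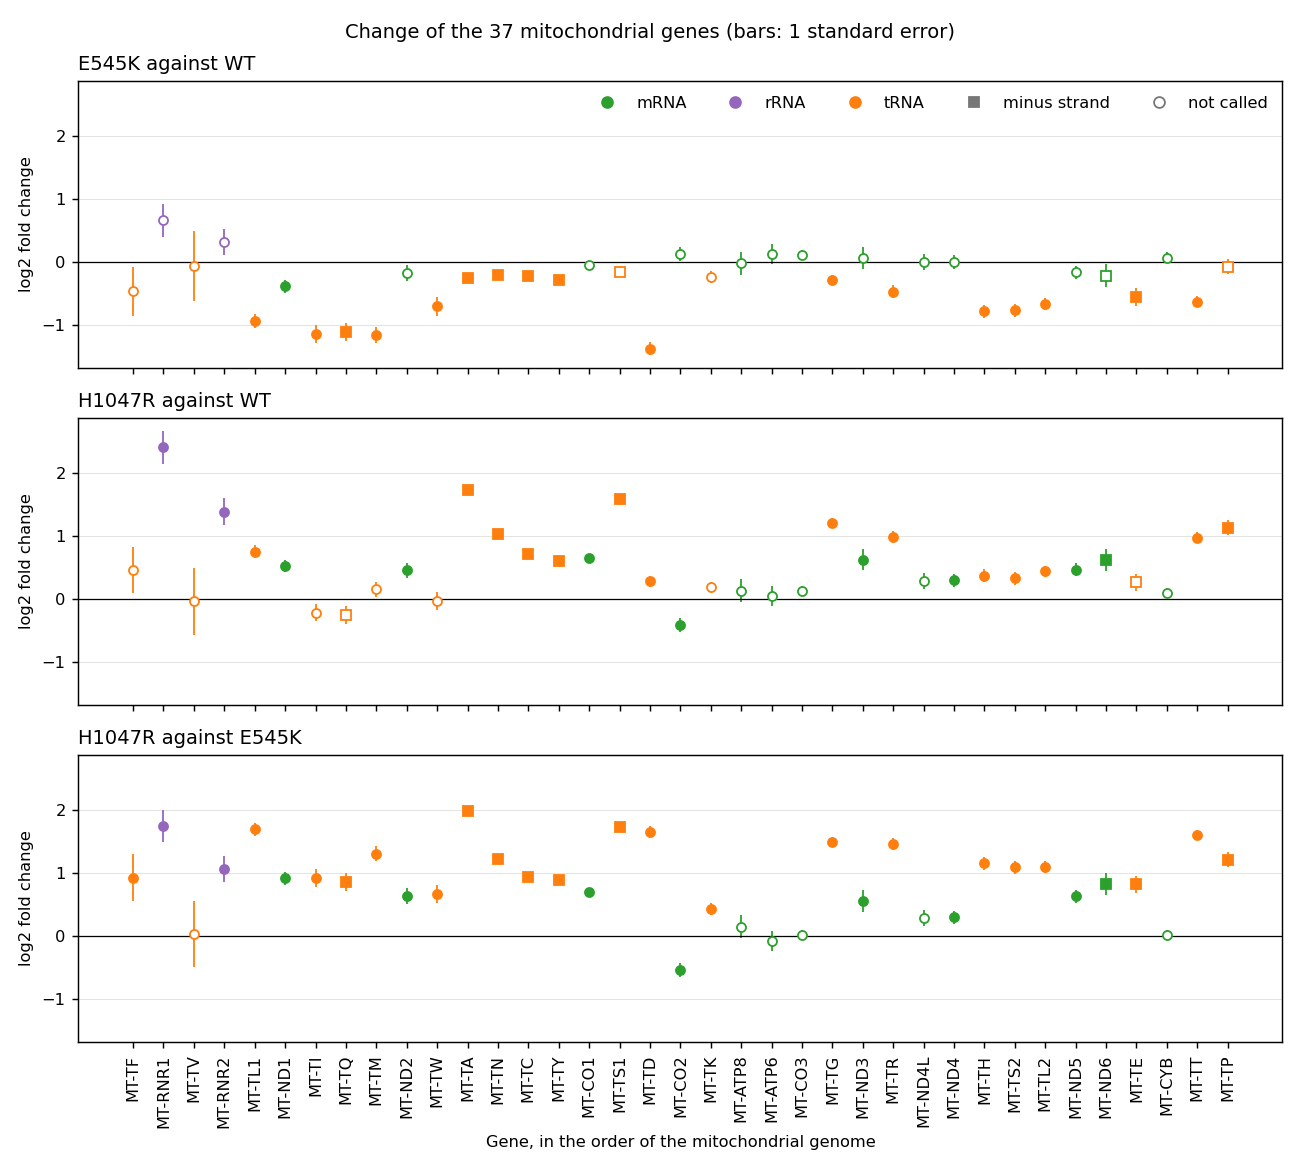
log2 fold change of the 37 genes in their order along the mitochondrial genome, 1 panel per comparison, with bars of 1 standard error. Filled symbols were called, and squares are minus-strand genes. In E545K against WT the tRNAs dip below a nearly level line of mRNAs, with MT-TD lowest at -1.37, and in H1047R against WT MT-RNR1 stands highest at 2.40 and MT-CO2 is the lowest gene at -0.41.

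In H1047R against WT, complex IV held the highest and the lowest change among the mRNAs, MT-CO1 and MT-CO2. MT-CO1, the catalytic core subunit that binds heme and copper, counted 3842, 3896 and 3883 CPM in WT, against 3775, 3674 and 3736 for E545K and 6126, 6275 and 5844 for H1047R. Every H1047R library lay above every other library, and all E545K libraries lay just below the WT ones. In H1047R it was higher by 0.65 ± 0.04 (log2, SE; adjusted p = 9.8e-10) against WT and by 0.71 ± 0.04 (6.1e-10) against E545K, while the E545K difference from WT, -0.06 ± 0.04, was not called (0.27). It was also the steadiest mRNA across the H1047R libraries, where its SD was 3.60% of the mean, against 14.6 to 39.2% for the other mRNAs.

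MT-CO2, the subunit that first accepts electrons from cytochrome c, counted 1371, 1326 and 1241 CPM in WT, against 1408, 1430 and 1454 for E545K and 1231, 953 and 779 for H1047R. The H1047R libraries lay lowest, with replicate 1 only just under the lowest WT library, and the E545K libraries lay highest. The change in H1047R was -0.41 ± 0.11 against WT (adjusted p = 0.0051) and -0.53 ± 0.11 against E545K (8.0e-04). Without H1047R replicate 3 the first of these was -0.26. MT-CO3, the third mitochondrial subunit of the same enzyme, averaged 1154 ± 13.7 CPM (SD, n = 3) in WT, against 1245 ± 30.8 for E545K and 1260 ± 184 for H1047R, and was called in no comparison.

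The opposite moves show best as a ratio within a library. MT-CO1 had 2.80, 2.94 and 3.13 counts for each count of MT-CO2 in WT, against 2.68, 2.57 and 2.57 for E545K and 4.98, 6.59 and 7.50 for H1047R. The 3 genotypes did not overlap, and the H1047R mean, 6.36 ± 1.28, stood against 2.96 ± 0.165 in WT and 2.61 ± 0.0648 in E545K. MT-CO1 made up 47.9 ± 4.80% of the chrM mRNA counts in H1047R against 38.8% in WT and 37.4% in E545K, and MT-CO2 7.65% against 13.1% and 14.3%.

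**Figure D3:**
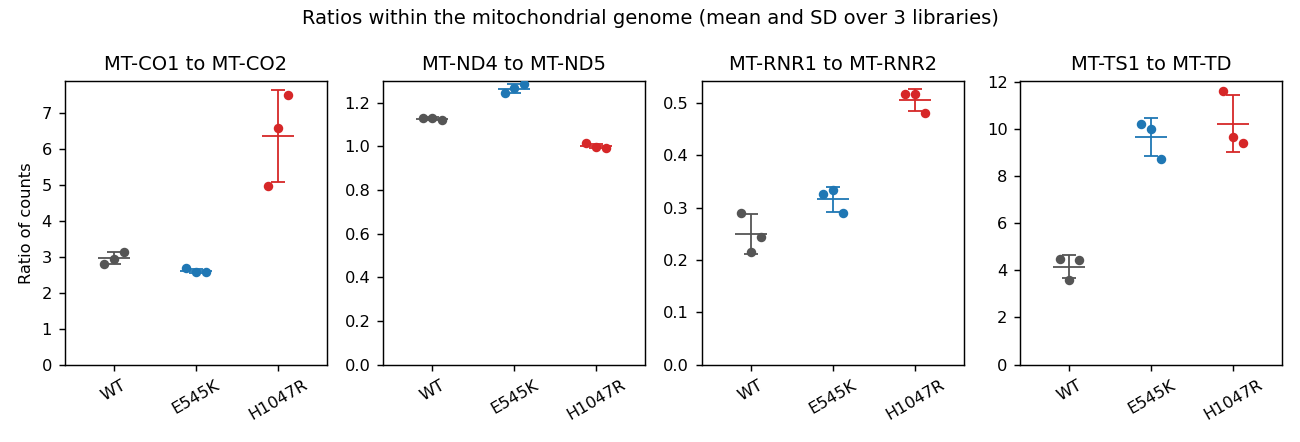
Ratios of counts between gene pairs in each library (points), with the mean and SD over the 3 libraries of a genotype. MT-CO1 to MT-CO2 and MT-RNR1 to MT-RNR2 are highest in H1047R, MT-ND4 to MT-ND5 is ordered E545K, WT, H1047R, and MT-TS1 to MT-TD is high in both knock-in lines.

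The complex I mRNAs were higher in H1047R as a group, and their size depended on 1 library. Against WT, 6 of 7 were called higher, with a median of 0.46, and against E545K the same count was reached with a median of 0.63. In E545K against WT, 1 of 7 was called, lower. This became 4 of 7 lower with the 6 WT and E545K libraries alone, and also without H1047R replicate 1.

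MT-ND1, a membrane subunit near the ubiquinone site, was the one mRNA that separated all 3 genotypes by test. It counted 320, 304 and 282 CPM in WT, against 226, 231 and 237 for E545K and 521, 433 and 353 for H1047R. No groups overlapped. It fell by 0.39 ± 0.10 in E545K (log2; adjusted p = 0.0057) and rose by 0.53 ± 0.10 in H1047R (2.8e-04) against WT, and the knock-in lines differed by 0.91 ± 0.10 (1.6e-06).

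MT-ND5, a proton-pumping membrane subunit, counted 677, 680 and 613 CPM in WT, against 587, 578 and 592 for E545K and 1109, 875 and 735 for H1047R. Again the groups did not overlap, but the E545K difference, -0.17 ± 0.10, was not called (adjusted p = 0.23). It became a call without H1047R replicate 1 (-0.16, adjusted p = 0.0097) or replicate 3 (0.035). The rise in H1047R was 0.46 ± 0.10 against WT (0.0012) and 0.63 ± 0.10 against E545K (9.7e-05). MT-ND4, its neighbour upstream and another pumping subunit, counted 741 ± 46.7 CPM in WT, 741 ± 16.5 in E545K and 909 ± 199 in H1047R. Its calls in H1047R (0.30 against WT, adjusted p = 0.028, and 0.29 against E545K, 0.030) were lost without H1047R replicate 1, at 0.12 in both (adjusted p = 0.081 and 0.088). The first was also lost without any 1 WT library and the second without any 1 E545K library. The ratio of MT-ND4 to MT-ND5 counts was 1.12 to 1.13 in WT, 1.24 to 1.28 in E545K and 0.993 to 1.01 in H1047R.

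MT-ND2, MT-ND3 and MT-ND6 were called higher in H1047R against WT at 0.45, 0.62 and 0.61, and the H1047R libraries overlapped with WT for each of them. MT-ND3 counted 155, 104 and 75.7 CPM in H1047R against 66.6 to 76.2 in WT. Without H1047R replicate 1 the 3 genes stood at 0.24, 0.31 and 0.27 and were still called (adjusted p = 0.0043, 0.0031 and 0.0037). MT-ND6 is the only mRNA of the minus strand and takes reads of both strands here: it counted 73.1 to 73.7 CPM in E545K, below all WT libraries (76.5 to 91.3), with a change of -0.21 ± 0.18 that was not called (0.39). Without H1047R replicate 1 this became a call (-0.21, adjusted p = 0.015), as did MT-ND2 in E545K (-0.18, 0.023). MT-ND4L stood at 98.2 CPM in WT and E545K and 120 in H1047R and was called in no comparison.

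Cytochrome b and the ATP synthase subunits did not pass the test in any comparison. MT-CYB counted 927 ± 47.2, 973 ± 19.7 and 987 ± 156 CPM in WT, E545K and H1047R, with log2 fold changes of 0.07, 0.09 and 0.02 in the order E545K against WT, H1047R against WT and H1047R against E545K. MT-ATP6, the proton-channel subunit, counted 526, 538 and 460 CPM in WT, against 544, 538 and 575 for E545K and 722, 478 and 371 for H1047R, so a single H1047R library lay above all others and another below. MT-ATP8, its bicistronic partner, behaved alike with 157, 93.3 and 75.8 CPM in H1047R against 89.5 to 105 in WT. Without H1047R replicate 1 both turned to calls of lower expression against WT, MT-ATP6 at -0.26 (adjusted p = 0.0058) and MT-ATP8 at -0.23 (0.0090). With all libraries the values were 0.04 ± 0.16 and 0.13 ± 0.18.

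Both rRNAs were higher in H1047R, and against WT MT-RNR1 had the largest change of the 37 genes. MT-RNR1, the 12S rRNA of the small mitochondrial ribosomal subunit, counted 22.6, 16.1 and 16.6 CPM in WT, against 25.8, 39.3 and 22.5 for E545K and 142, 88.8 and 62.5 for H1047R. The H1047R libraries lay above all others, and the WT and E545K ranges met. It rose by 2.40 ± 0.26 in H1047R against WT (adjusted p = 1.3e-06) and by 1.74 ± 0.25 against E545K (3.1e-05), and the E545K value of 0.66 ± 0.25 was not called (0.057). That value became a call with the 6 WT and E545K libraries alone (adjusted p = 4.9e-06) and on library totals (0.024). MT-RNR2, the 16S rRNA of the large subunit, counted 77.9, 75.0 and 67.9 CPM in WT, against 78.9, 118 and 78.1 for E545K and 275, 172 and 130 for H1047R. Its rise in H1047R was 1.38 ± 0.21 against WT (4.7e-05) and 1.07 ± 0.21 against E545K (5.1e-04).

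The smaller rRNA changed more than the larger. There were 0.214 to 0.290 counts of MT-RNR1 for each of MT-RNR2 in WT, 0.289 to 0.333 in E545K and 0.480 to 0.518 in H1047R, with H1047R apart from both. These rRNA levels are what was left after rRNA depletion. The labels do not say whether the kit's probes cover the mitochondrial rRNAs, and how well each library was depleted was not tested. Nuclear rRNA and rRNA pseudogenes took 7.1e-04 to 7.6e-04% of counts in WT and E545K and 7.7e-04 to 0.00121% in H1047R.

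Among the tRNA genes, E545K lay below WT throughout. All 22 log2 fold changes were below 0, and 17 were called: 11 of 14 on the plus strand, with a median of -0.68, and 6 of 8 on the minus strand, with a median of -0.24. For 16 tRNAs every E545K library lay under every WT library, against the 27.4% of all genes given above. Leaving out any 1 library left 14 to 18 tRNAs called lower and 0 higher. Neighbouring tRNA genes can take the same reads, so the tRNAs counted here and for H1047R below are not independent.

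MT-TD, whose sequence is printed above, fell the most. It counted 5.20, 6.37 and 6.27 CPM in WT, against 2.42, 2.12 and 2.33 for E545K and 6.77, 7.55 and 7.30 for H1047R. The E545K libraries lay at less than any other library by a wide gap, a change of -1.37 ± 0.10 (adjusted p = 4.5e-08). In H1047R against WT it rose by 0.28 ± 0.09 (0.015), a call that was lost without WT replicate 1 (0.19, adjusted p = 0.11) and without H1047R replicate 2 (0.25, 0.058).

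The tRNAs for isoleucine, glutamine and methionine stand side by side between MT-ND1 and MT-ND2 and fell together in E545K. MT-TI counted 5.25, 4.09 and 4.23 CPM in WT and 1.91, 2.12 and 2.15 in E545K, MT-TQ 3.14 to 4.50 against 1.60 to 1.82, and MT-TM 2.92 to 3.47 against 1.21 to 1.62. Their changes were -1.14 ± 0.14, -1.11 ± 0.15 and -1.15 ± 0.12 (adjusted p = 1.7e-05, 3.2e-05 and 3.2e-06). MT-TI and MT-TQ overlap by 3 bases on opposite strands and 1 base parts MT-TQ from MT-TM. A read can thus count for all of them. MT-TL1, for leucine, at the junction of MT-RNR2 and MT-ND1, fell in E545K and rose in H1047R. It counted 9.17 to 10.0 CPM in WT, 4.71 to 5.28 in E545K and 13.6 to 19.1 in H1047R, with -0.94 ± 0.11 (5.3e-06) in E545K and 0.75 ± 0.10 (1.0e-05) in H1047R.

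A second run of adjacent tRNAs, MT-TH, MT-TS2 and MT-TL2 for histidine, serine and leucine, lies between MT-ND4 and MT-ND5. With 0 bases between these tRNA genes, a read can count for several of them. These fell by 0.78, 0.76 and 0.66 on the log2 scale in E545K (SE 0.10 to 0.11), and MT-TW, MT-TT, MT-TE and MT-TR, for tryptophan, threonine, glutamate and arginine, by 0.70, 0.63, 0.55 and 0.47. The falls of MT-TY, MT-TG, MT-TA, MT-TC and MT-TN were smaller, 0.20 to 0.29. Of these, MT-TA, MT-TN, MT-TC and MT-TG lost their call without one or another WT or E545K library. MT-TS1, MT-TK, MT-TP, MT-TF and MT-TV were not called. MT-TF and MT-TV were the rarest genes of the set, with as few as 24 and 5 counts in a library, and no change in them was detectable at this depth between E545K and WT.

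**Figure D4:**
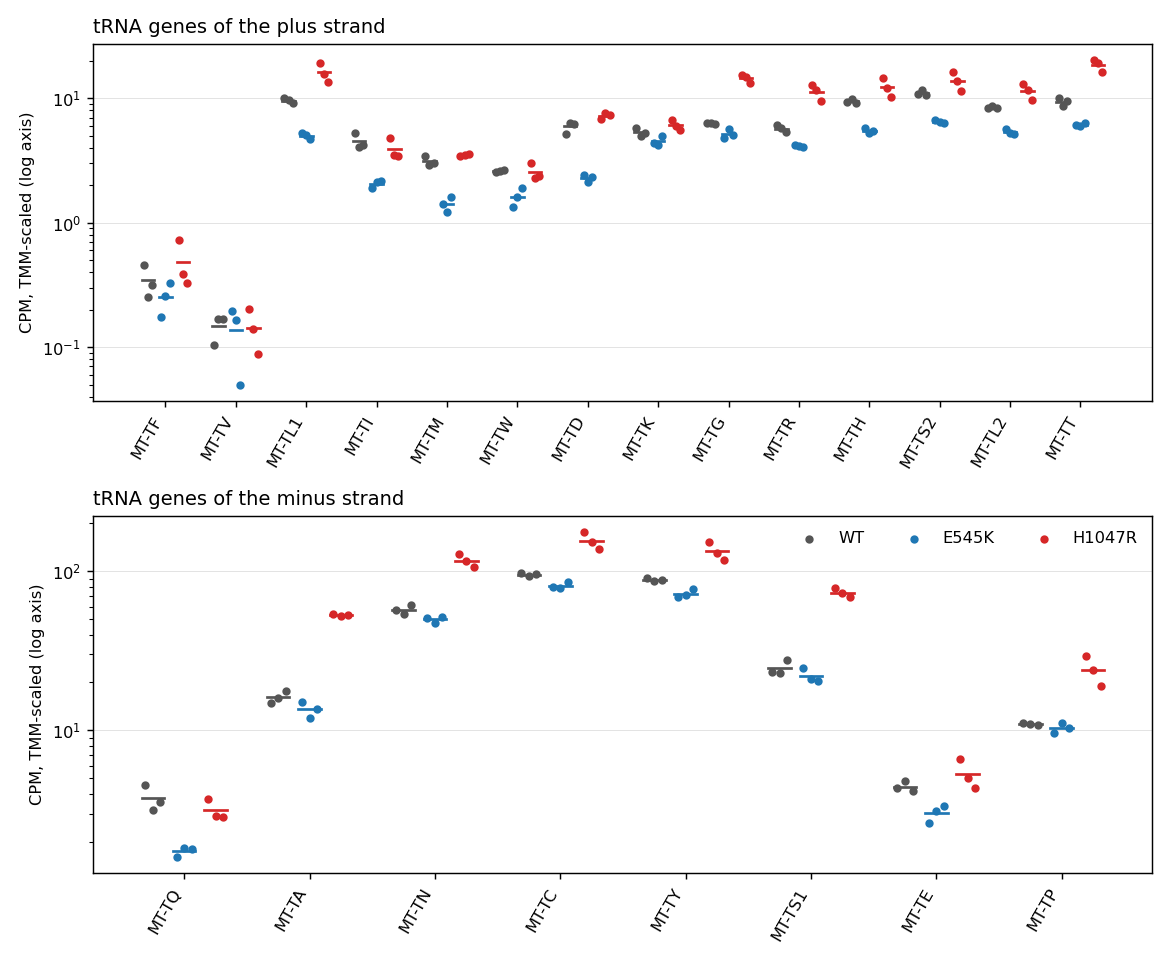
CPM after TMM scaling (log axis) of the 14 plus-strand and 8 minus-strand tRNA genes, with 1 point per library and the mean of 3 as a short line. E545K points lie lowest for most genes, and MT-TA and MT-TS1 stand apart in H1047R at 52.6 to 54.2 and 68.6 to 78.7 CPM.

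The log2 fold change of all 22 tRNAs in E545K against WT lay below that of the nearest mRNA or rRNA genes, with 1 such gene for MT-TF, MT-TT and MT-TP and a gene on either side for the others. The distance varied: MT-ND1, beside MT-TL1 and MT-TI, was itself called lower, and MT-ND2 (-0.18, not called) stood close to MT-TN (-0.20) and MT-TC (-0.23). MT-TD stood at -1.37 between MT-CO1 (-0.06) and MT-CO2 (0.12), and MT-TI, MT-TQ and MT-TM at -1.11 to -1.15 between MT-ND1 (-0.39) and MT-ND2 (-0.18). Within a library, there were 0.00379 to 0.00505 counts of MT-TD for each of MT-CO2 in WT and 0.00148 to 0.00172 in E545K. As a share of all chrM counts, the tRNAs took 3.50 to 3.85% in WT, 2.86 to 2.99% in E545K and 4.92 to 5.12% in H1047R, with no overlap.

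In H1047R the tRNA genes lay higher, and against WT the minus strand had the larger median. Against WT, 14 of 22 were called higher and 0 lower: 6 of 8 on the minus strand, with a median of 0.87, and 8 of 14 on the plus strand, with a median of 0.35. DESeq2 and an unadjusted p under 0.05 in edgeR also gave 0 lower. Against E545K, 21 of 22 were called higher, with medians of 1.07 on the minus strand and 1.13 on the plus strand. The exception was MT-TV.

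MT-TA counted 14.8, 16.0 and 17.8 CPM in WT, against 15.1, 11.9 and 13.6 for E545K and 54.2, 52.6 and 53.2 for H1047R. It rose by 1.72 ± 0.08 against WT (adjusted p = 6.8e-11) and by 1.98 ± 0.08 against E545K (3.0e-11), and its H1047R libraries were within 1.43% (SD over mean). MT-TS1 counted 23.2, 22.8 and 27.8 CPM in WT, against 24.7, 21.2 and 20.3 for E545K and 78.7, 72.8 and 68.6 for H1047R, with rises of 1.58 ± 0.08 (4.7e-10) and 1.73 ± 0.08 (2.7e-10). In both genes the H1047R libraries formed a group well above the other 6.

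MT-TA belongs to a cluster with MT-TN, MT-TC and MT-TY, for asparagine, cysteine and tyrosine, on the minus strand between MT-ND2 and MT-CO1. A gap of 31 bases between MT-TN and MT-TC holds the origin at which the light strand is copied. All 4 were called higher in H1047R, in steps along the cluster: 1.72 for MT-TA, 1.03 for MT-TN, 0.71 for MT-TC and 0.59 for MT-TY (SE 0.06 to 0.08). MT-TC and MT-TY were the tRNA genes with the highest counts in WT, at 95.3 and 88.4 CPM. Counts of MT-TA for each of MT-TN were 0.259 to 0.298 in WT, 0.252 to 0.298 in E545K and 0.424 to 0.500 in H1047R, apart from both.

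Of the other tRNAs, MT-TG, MT-TP, MT-TR and MT-TT, for glycine, proline, arginine and threonine, rose by 1.20, 1.13, 0.99 and 0.97 in H1047R against WT (SE 0.07 to 0.12). MT-TG counted 6.23 to 6.34 CPM in WT and 13.2 to 15.3 in H1047R, without overlap. The cluster of MT-TI, MT-TQ and MT-TM did not take part: the values were -0.22, -0.26 and 0.15, none called. Without H1047R replicate 1, MT-TI and MT-TQ were called lower against WT, at -0.39 (adjusted p = 0.0057) and -0.38 (0.016).

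MT-TS1 and MT-TD lie on opposite strands of the printed stretch and had a higher ratio in both knock-in lines. Counts of MT-TS1 for each of MT-TD were 4.46, 3.58 and 4.44 in WT, against 10.2, 9.99 and 8.71 for E545K and 11.6, 9.64 and 9.39 for H1047R. The ratio was alike in the knock-in lines although the levels were not, since MT-TD was low in E545K and MT-TS1 high in H1047R. Compared with the nearest mRNA or rRNA genes, 9 tRNAs in H1047R against WT lay above both, 6 below both and 7 between.

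To see which transcripts changed unequally within the genome, the same test was run with the summed counts of the 13 mRNAs as the library size, which gives a difference in share and not in level. On this scale 27.2% of all genes were called in E545K against WT (13.4% higher, 13.8% lower), 57.1% in H1047R against WT (11.5% higher, 45.6% lower) and 55.7% in H1047R against E545K (9.29% higher, 46.4% lower). In E545K against WT, MT-RNR1 rose (0.67 ± 0.20, adjusted p = 0.021) and 17 genes fell, 16 of them tRNAs and the other MT-ND1 (-0.38 ± 0.06, 1.2e-04). Without E545K replicate 2 that MT-RNR1 value was not called (0.39, adjusted p = 0.17), nor was it without WT replicate 2 or 3.

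In H1047R against WT, 14 genes gained share and 7 lost it. MT-CO1 (0.31 ± 0.06, adjusted p = 3.2e-04) and MT-ND1 (0.17 ± 0.06, 0.026) gained among the mRNAs, and MT-CO2 (-0.78 ± 0.06, 2.0e-08), MT-ATP6 (-0.34 ± 0.11, 0.012), MT-CYB (-0.27 ± 0.05, 1.5e-04) and MT-CO3 (-0.23 ± 0.05, 4.2e-04) lost. Since MT-CO1 alone made up 47.9% of the mRNA counts in H1047R, its rise lowers the share of the rest. With the libraries scaled by the median ratio over the 13 mRNAs instead, MT-CO1 (0.40, adjusted p = 0.0048) and MT-CO2 (-0.71, 3.0e-06) were still called, and the calls of MT-ND1, MT-ATP6, MT-CYB and MT-CO3 were lost (0.24, -0.28, -0.19 and -0.15).

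Nuclear genes for the same complexes were set beside these values, from lists of subunits and assembly factors that were put together with earlier results of these data known. Where the nuclear genes named below lie on the chromosomes was not taken into account, so a change shared by a chromosome region would not be seen. In H1047R against WT, 19 of 127 nuclear respiratory chain genes were called higher and 72 lower, with a median of -0.22, beside 27.4% and 28.1% of all genes. Complex I showed the contrast most plainly: 24 of its 37 nuclear subunits were called lower and 3 higher, while 6 of its 7 mitochondrial mRNAs were called higher. NDUFB7 and NDUFS6, accessory subunits, fell by 1.18 ± 0.05 (log2; adjusted p = 4.0e-11) and 1.11 ± 0.18 (9.8e-05). NDUFS6 spread widely in H1047R, at 30.8, 19.3 and 15.0 CPM, against 45.0 to 49.0 in WT. NDUFB7 counted 55.5 CPM in WT, 42.7 in E545K and 24.6 in H1047R. NDUFS1, a core subunit of the peripheral arm, went the other way at 0.25 ± 0.04 (4.5e-05).

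The subunits of the other complexes were also mostly called lower in H1047R against WT. Of them, 7 of 9 for complex III, 9 of 12 for complex IV and 14 of 18 for complex V were called lower, and 0, 0 and 1 higher. The assembly factors did not share this split: 5 were called higher and 4 lower for complex I, 3 and 3 for complex III, 5 and 8 for complex IV and 2 and 0 for complex V. CYC1, cytochrome c1, fell by 0.59, COX8A and COX5B of cytochrome c oxidase by 0.76 and 0.56, and ATP5MC1, which encodes the rotor ring's c-subunit, by 0.84 (SE 0.04 to 0.06). For complex II, which has no mitochondrial gene, 3 of 4 subunits were called lower, among them SDHB at -0.49 ± 0.06 (adjusted p = 2.4e-06).

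In E545K against WT, 26 of the 127 nuclear respiratory chain genes were called higher and 15 lower, beside 17.7% and 18.9% of all genes. Their median was -0.00, and on library totals the split was 46 and 10. COA1, an assembly factor for complexes I and IV, rose by 1.08 ± 0.04 (adjusted p = 1.2e-10), with 16.9 CPM in WT and 35.8 in E545K. NDUFA4, a subunit now counted with complex IV, rose by 0.77 ± 0.07 (5.6e-07), from 104 to 177 CPM, and stood at 84.5 CPM in H1047R.

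**Figure D5:**
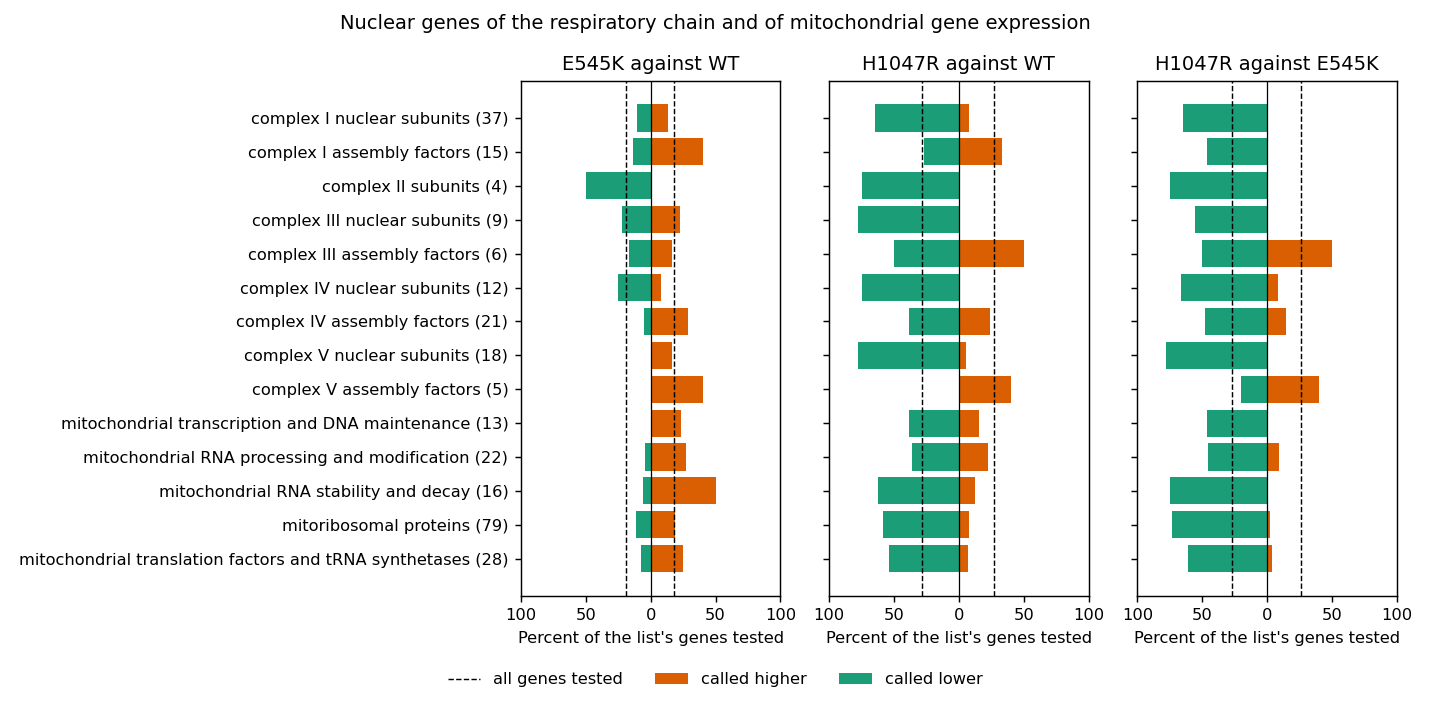
Percent of the genes tested in each nuclear list that were called higher (right) or lower (left), with the number tested in brackets and dashed lines for the shares over all genes. Bars to the left dominate for most lists in both H1047R panels, among them complex V nuclear subunits with 14 of 18 lower against WT and E545K alike.

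The nuclear genes that express the mitochondrial genome split in the same way. Of 158, 17 were called higher and 84 lower in H1047R against WT (median -0.17), and 5 and 103 against E545K (median -0.23). Over all genes, 27.4% were called higher and 28.1% lower against WT, and 25.9% and 27.3% against E545K. In E545K against WT the list had 39 higher and 13 lower (median 0.08), beside 17.7% and 18.9% of all genes. On library totals the list had 99 higher and 4 lower. Mitoribosomal proteins made up 79 of the list, with 46 lower and 6 higher in H1047R against WT, MRPL23 at -1.09 ± 0.07 (adjusted p = 3.0e-09) among them.

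POLRMT, the mitochondrial RNA polymerase, counted 44.5 ± 1.20 CPM in WT, 49.0 ± 0.246 in E545K and 37.3 ± 1.41 in H1047R, without overlap (0.14 ± 0.04 in E545K, adjusted p = 0.018, and -0.26 ± 0.04 in H1047R, 8.6e-05, against WT). TFAM, which packages mitochondrial DNA and starts transcription, was called in no comparison, at 32.7 ± 0.831, 34.8 ± 0.961 and 31.6 ± 3.04 CPM. TFB2M, the second transcription initiation factor, was called lower in H1047R against WT at -0.18 ± 0.07 (0.034), and TEFM, the elongation factor, higher at 0.42 ± 0.07 (1.9e-04), with 4.33 CPM in WT, 5.36 in E545K and 5.81 in H1047R.

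Among the factors that stabilise or process the transcripts, LRPPRC, which binds the mRNAs with SLIRP, was called higher in E545K (0.19 ± 0.05, adjusted p = 0.0069) and was not called in H1047R against WT (-0.04 ± 0.05, 0.49). SLIRP stood at 27.9 CPM in WT and at 22.0 in H1047R (-0.35 ± 0.09, 0.0048). TBRG4, also named FASTKD4, a protein of the FASTK family that affects the stability of several mitochondrial mRNAs, counted 71.1 CPM in WT, 117 in E545K and 56.5 in H1047R, with 0.72 ± 0.04 (1.8e-09) in E545K against WT. PNPT1, the polynucleotide phosphorylase of the organelle's RNA degradosome, rose in E545K by 0.48 ± 0.06 (3.0e-05) and in H1047R by 0.24 ± 0.06 (0.0050). TRNT1, which adds the terminal CCA to tRNAs, rose by 0.31 ± 0.06 (4.6e-04) and 0.56 ± 0.05 (4.9e-07). Most called genes of these 2 lists fell in H1047R against WT. Of 16 stability and decay genes 2 were called higher and 10 lower, with FASTKD3 and FASTKD1 both at -0.49. Of 22 processing genes 5 were called higher and 8 lower, with GTPBP3 at -0.58. Over all genes the shares were 27.4% higher and 28.1% lower, not far from those of the processing genes. In E545K against WT 6 of the 22 processing genes were called higher and 1 lower, beside 17.7% and 18.9% of all genes. MRM2 rose most among them, by 0.82 ± 0.07 (3.1e-07).

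Of the genes that set mitochondrial content, PPARGC1A (PGC-1alpha) was low throughout and lowest in H1047R: 3.16, 2.21 and 2.73 CPM in WT, against 1.30, 1.60 and 1.42 for E545K and 0.633, 0.336 and 0.380 for H1047R. Against WT its log2 change was -0.91 ± 0.22 in E545K (adjusted p = 0.0039) and -2.60 ± 0.22 in H1047R (1.1e-07). Its relative PPARGC1B, at 34.7 CPM in WT, 52.8 in E545K and 49.8 in H1047R, was called higher in both, at 0.60 ± 0.05 (1.4e-07) and 0.52 ± 0.05 (2.4e-07). NRF1, nuclear respiratory factor 1, rose in E545K (0.25 ± 0.07, 0.0091) and was not called in H1047R against WT (0.06 ± 0.07, 0.50).

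Copies of mitochondrial sequence in the nuclear genome can take reads of the same transcripts. The tables named 404 such genes, of which 3 reached 1 CPM in any library: MTATP6P1, MTCO1P12 and MTND2P28, with mean levels of 27.6, 10.0 and 5.75 CPM. All copies together held 46.0 ± 6.88 CPM in WT, 50.0 ± 1.75 in E545K and 45.8 ± 7.95 in H1047R, against 10474, 10408 and 13772 CPM for the 37 chrM genes.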

How the data were processed

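Total RNA of 9 MCF-10A libraries was rRNA-depleted and sequenced as 150-base pairs, per the labels' protocols. The deposited gene counts were made by the authors with featureCounts 2.0.0 on GENCODE 32 (hg38), per the file headers: exons were counted without strand, reads over several genes were counted for each, and mates were counted singly. Per the submitters' processing notes, STAR, SAMtools 1.5, FastQC, cutadapt and Trim Galore 0.4.0 were also used. The positions of the 37 genes equal those of GENCODE 44. The count test was edgeR 4.0.16 (R 4.3.3; quasi-likelihood, filterByExpr, TMM) over all 9 libraries. The SE is the log2 fold change divided by the root of F. The count test was also run on simulated counts for 26412 genes. For E545K against WT it recovered 50 of 50 rises of 2-fold, 17 of 50 of 1.5-fold and 47 of 50 falls to 0.5-fold. For H1047R against WT these were 46, 25 and 49 of 50. Unchanged genes falsely called numbered 0 for E545K against WT and 20 for H1047R against WT. In the simulation all genes of a genotype had the same spread, few genes changed, and those had high counts. The real counts differ in each of these points, so the figures do not give the power or error rate in these data. Alternatives were other scalings, filters and fits, DESeq2 1.42.0, a replicate block and leaving out each library. Shares were tested with scipy 1.17.1. All chrM genes are accounted for by class. Nuclear genes were named from those of the largest changes within each list, at 5 CPM or more, together with fixed regulators. Not every such gene is named. The 37 genes follow from a rule of position alone, but that set and the nuclear lists were chosen as subjects with earlier results of these data known. The leukocyte marker list is not reported here.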

Additional observations from a re-analysis of the deposited data

How the results depend on the processing

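The count of mitochondrial genes called between E545K and WT was 18 and became 30 with the 6 libraries of those groups alone. Relative to the mRNA total it was 18, and became 11 under median-ratio scaling and 29 with the 2 groups alone. Of the nuclear gene expression list, 52 were called between E545K and WT, against 103 on library totals, 80 under a stricter filter, 103 with the 2 groups alone and 29 to 83 when 1 library was left out. That count was 30 without WT replicate 3, 29 without E545K replicate 1, 83 without H1047R replicate 1 and 81 without H1047R replicate 3. For the nuclear respiratory chain, 41 became 72 with the 2 groups alone. The mRNA share, E545K minus WT, turned to -0.001712 on TMM-scaled sizes. Leaving out 1 library gave 15 to 25 mitochondrial genes called in E545K against WT, 22 to 30 in H1047R against WT and 29 to 35 in H1047R against E545K.

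The sign turned only in genes that were not called with all libraries. In E545K against WT, MT-ND4L (-0.0001) was 0.0000 with DESeq2-style size factors, 0.0091 with upper-quartile scaling, 0.0929 on library totals, 0.0005 when scaled without chrM and misc_RNA genes, 0.0005 with DESeq2, 0.0130 with a stricter filter, 0.0103 with the replicate block and -0.0790 to 0.0426 with 1 library left out. On library totals MT-TV was 0.0275, MT-CO1 0.0379, MT-ATP8 0.0734 and MT-TP 0.0151, and with 1 library left out MT-TV was -0.4272 to 0.3114 and MT-ATP8 -0.0894 to 0.0217. MT-ND4 was -0.0080 without a low-count filter and -0.0527 to 0.0276 with 1 library left out. In H1047R against WT, MT-TV was 0.0091 and MT-TW 0.0239 with upper-quartile scaling, MT-TW 0.0036 with no filter and 0.0070 with a stricter one, and MT-ATP6 -0.0127 on library totals. With 1 library left out the ranges there were -0.3472 to 0.2262 for MT-TV, -0.1657 to 0.0515 for MT-TW, -0.2562 to 0.2440 for MT-ATP6, -0.2259 to 0.3389 for MT-ATP8 and -0.0268 to 0.2046 for MT-CYB. In H1047R against E545K, MT-TV, MT-CO3 and MT-CYB were -0.1198, -0.1243 and -0.1210 on library totals. With 1 library left out they were -0.3463 to 0.3906, -0.0869 to 0.1263 and -0.0971 to 0.1345, and MT-ATP8 and MT-ATP6 were -0.2067 to 0.3585 and -0.3766 to 0.1238. The cause was not tested.

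Of the other values for single genes, 2986 kept direction and side of the threshold, 88 lost a call and 70 gained one. Deviations of same-numbered libraries from their group means had correlations of -0.0778 to 0.0728, and those of differently numbered ones -0.0930 to 0.0537. No pairing by number showed, but with 3 libraries per group this check cannot exclude one. With the replicate block, 18 mitochondrial genes were called lower and 1 higher in E545K against WT, 24 higher and 1 lower in H1047R against WT, and 30 higher and 1 lower in H1047R against E545K.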
